A study of Mus musculus with 16 samples.

Results

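The hypoxia response was followed through 10 genes in the small intestine of mice that lack Cul4b, whose rows were taken by symbol from each of 3 RNA-seq count tables. They are 10 of the 54643 genes that appear in any of the tables. Hif1a and Epas1 encode the alpha subunits of the hypoxia-inducible factors HIF-1 and HIF-2. Egln3 encodes a HIF prolyl hydroxylase, Vegfa a secreted angiogenic factor, Slc2a1 the glucose transporter GLUT1 and Pfkfb3 a regulator of glycolytic flux. Ndufa4l2 and Bnip3 encode mitochondrial proteins, Car9 a carbonic anhydrase of the cell surface, and Ankrd37 an ankyrin repeat protein. The genes were picked because of how their KO and WT levels looked in these same tables, so their KO against WT values are a description here, with errors but without a p-value.

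When oxygen is plentiful, prolyl hydroxylases of the Egln family mark the HIF alpha subunits, and the VHL ubiquitin ligase, built on the cullin CUL2, sends them for degradation. When oxygen is short, the alpha subunits persist, pair with ARNT and bind hypoxia response elements, whose core is ACGTG or GCGTG, in the promoters and enhancers of glycolytic, angiogenic and other genes. Control is mostly on the protein, so the transcript level of an alpha subunit gives no measure of HIF activity, and several target genes, Egln3 among them, feed back on the pathway. In the intestinal epithelium HIF-2 is best known for driving the genes of iron absorption, and HIF-1 for barrier genes.

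Libraries came from mice on a C57BL/6 background in which CUL4B, the scaffold of a ubiquitin ligase other than the VHL one, was deleted by Cre. Crypts, the epithelial pockets of the small intestine that hold the stem cells, were taken from WT controls with the floxed allele alone (Cul4b fn/Y, 4 libraries) and from KO IEC mice (pVillin-Cre; Cul4b fn/Y, 4 libraries), in which Cre acts in the intestinal epithelium only. Organoids, epithelial cultures grown from crypts in Matrigel, were made from the same model (2 WT and 2 KO IEC libraries). Organoids of a second model carried the tamoxifen-inducible CAG-CreERT2, which is active in all cell types, and were sequenced after tamoxifen treatment (2 WT and 2 KO CAG libraries). Adult mice served for most of the study, and the age behind each library, and whether WT cultures of the second model carried CreERT2 or were treated too, are not given in the sources used here. The study calls its replicates biological, with 2 to 4 per group, while the labels do not say that each came from a separate animal. The p-values therefore measure the spread between these libraries, and for organoids whether it is in part technical is not stated.

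Total counts ran from 9311734 to 13479974 per crypt library, from 15006730 to 16881395 in the KO IEC organoid experiment and from 7348191 to 10462275 in the KO CAG organoid experiment, and 3 counts, the floor used here, correspond to 0.178 to 0.408 CPM (reads on a gene relative to the size of the library; the floor covers counting error only). Cul4b fell from a mean of 33.9 to 1.43 CPM in the crypts, from 78.2 to 1.72 CPM in organoids of that model and from 71.5 to 4.26 CPM with CAG-CreERT2. The 5 epithelial markers summed to 6989 to 8273 CPM in WT and 7785 to 9214 CPM in KO IEC crypts. Their sum was higher in KO without overlap in both organoid experiments. It was 4828 to 5861 CPM in WT against 6786 to 6957 CPM in KO IEC, and 4835 to 5076 against 6242 to 6954 CPM in KO CAG. In KO IEC organoids 3 of the 5 lay above WT without overlap and 0 below, beside 19.4% of all tested genes for each. In KO CAG organoids 3 lay above and 2 below, beside 35.5% and 34.2% of all tested genes. The part of these markers in the values below was not tested. The crypt libraries differed in mitochondrial ribosomal RNA (mt-Rnr1 plus mt-Rnr2). WT replicate 1 and KO IEC replicates 1 to 3 held 18.9 to 25.2 CPM, WT replicate 4 and KO IEC replicate 4 held 834 and 1078 CPM, and WT replicates 2 and 3 held 2840 and 2873 CPM. Below, these are called the low, middle and high class. Bulk libraries cannot tell fewer cells of a type from less RNA per cell.

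Of the 10 genes, 8 have a promoter entry in the RefSeq table used (GRCm38.p6, 250 bases before to 50 after each start site). Epas1 and Ndufa4l2 are not among these 8. All 8 genes held ACGTG or GCGTG on either strand in at least 1 of their windows, against 46.7% of the 27025 genes in the table and 67.4% of those tested in KO CAG organoids. All 8 held ACGTG, against 21.8% and 29.3%. A match is only a string of letters in a window, and the genes are known HIF targets or HIF genes, so this share describes the choice of genes. The windows of 4 genes are shown because, among those with an entry, they had the largest differences in KO CAG organoids (Egln3, Bnip3, Ankrd37) or the highest level (Car9). Capitals mark each match of either core, read on either strand, and overlapping matches run together. Each stretch is written 5′ to 3′ along the gene's strand, without annotated exon sequence except for Car9, where the match lies in sequence annotated as exon in GENCODE M21 and only the site is given.
Bnip3, minus strand, chr7:138909520-138909756: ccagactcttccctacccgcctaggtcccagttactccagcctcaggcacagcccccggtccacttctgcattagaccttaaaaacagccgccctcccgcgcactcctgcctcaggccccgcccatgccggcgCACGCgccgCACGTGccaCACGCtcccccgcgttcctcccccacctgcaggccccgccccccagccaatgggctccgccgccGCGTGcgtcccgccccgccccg
Egln3, minus strand, chr12:54203875-54204124: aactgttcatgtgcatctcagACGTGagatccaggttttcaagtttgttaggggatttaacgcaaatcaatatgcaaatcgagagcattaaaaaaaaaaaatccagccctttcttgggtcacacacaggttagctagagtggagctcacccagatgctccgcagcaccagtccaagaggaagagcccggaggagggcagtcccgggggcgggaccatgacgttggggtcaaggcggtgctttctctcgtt
Ankrd37, minus strand, chr8:45999868-46000100: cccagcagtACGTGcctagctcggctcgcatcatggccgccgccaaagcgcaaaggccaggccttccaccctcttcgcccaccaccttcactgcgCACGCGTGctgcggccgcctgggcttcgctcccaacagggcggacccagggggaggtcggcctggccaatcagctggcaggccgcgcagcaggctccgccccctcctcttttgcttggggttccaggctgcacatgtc
Car9, plus strand, chr4:43506997-43507023: tatttccgatgCACGTacagcccgtcc
The Bnip3 window held 5 matches, 35 to 117 bases before the start site, of which 2 fall on the same palindrome. The single Egln3 match lay 229 bases before the start site, the Ankrd37 matches 152 to 241 bases before it, and the Car9 match 18 bases before it. For Ankrd37 this is a RefSeq start site inside the gene span given below (chr8:45996902-46005707), so its window is not upstream of that whole span.

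**Figure D1:**
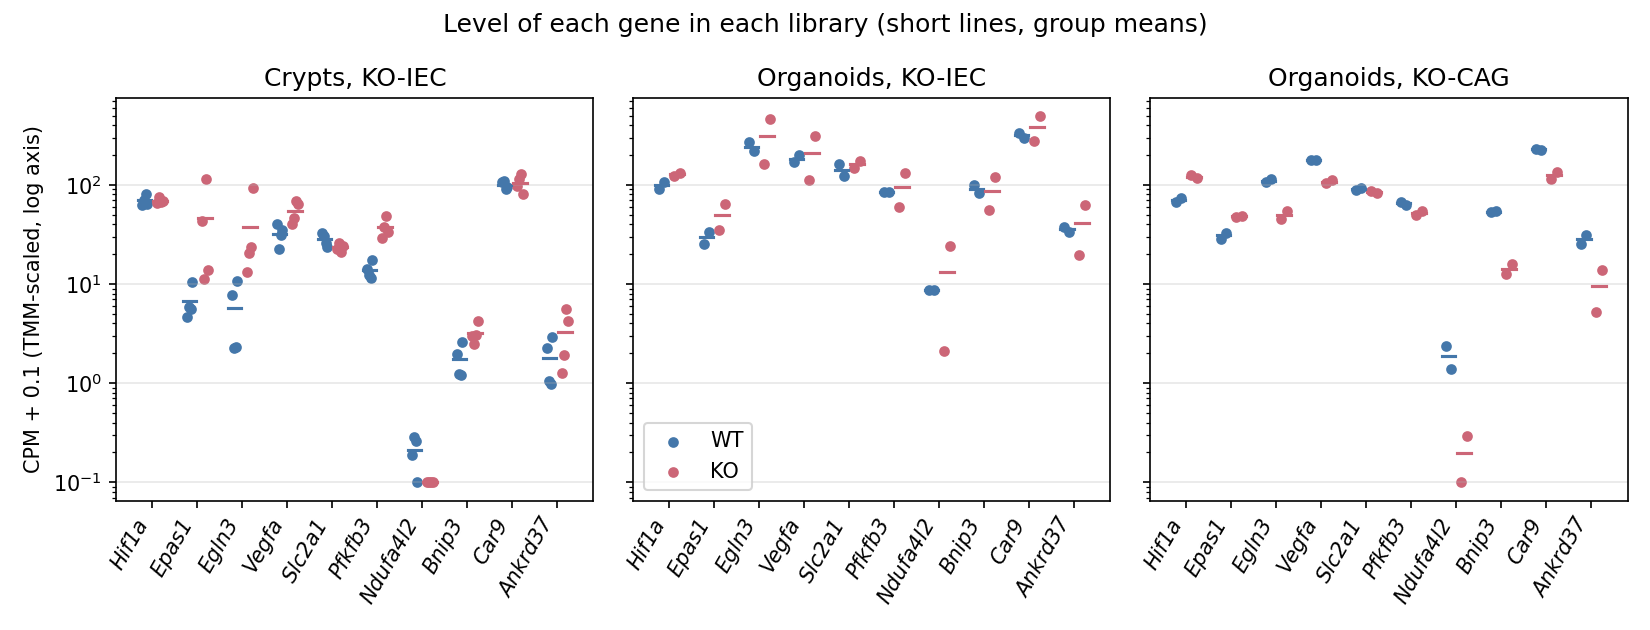
CPM of each gene in each library (points, log axis, with 0.1 CPM added so that values of 0 can be drawn), in WT (blue) and KO (red), for the 3 experiments; short lines are group means. In the crypts Epas1 and Egln3 KO IEC libraries spread widely above WT, and in KO CAG organoids 8 of the 10 genes sit below WT in both libraries while Hif1a and Epas1 sit above.

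In WT libraries the genes differed widely in level. Per kb of gene length, Car9 was the highest of the 10 in each WT group, with a mean of 43.3 ± 4.02 CPM per kb in crypts (SD, n = 4), 138 ± 10.8 in the WT organoids of the KO IEC experiment (SD, n = 2) and 99.0 ± 1.11 in those of the KO CAG experiment (SD, n = 2). In WT crypts Hif1a followed at 11.8 CPM per kb, then Slc2a1 at 8.03 and Vegfa at 7.49, whose ranges overlapped. Egln3 (2.13), Pfkfb3 (1.83), Epas1 (1.24), Ankrd37 (1.10) and Bnip3 (0.731 CPM per kb) formed a lower set in which each gene's range overlapped that of its neighbour. Ndufa4l2 was last, at 0 to 0.172 CPM per kb. In WT organoids the hydroxylase gene Egln3 stood among the 3 highest (91.4 and 41.3 CPM per kb), Bnip3 was at 40.4 and 23.6 CPM per kb, and Epas1 was last or next to last at 5.54 and 5.79. The 3 tables were scaled separately, so levels in crypts and organoids are set side by side and were not tested against each other.

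Of the HIF alpha subunit genes, Epas1 was higher in KO IEC crypts, while Hif1a lay within the WT spread. Hif1a (chr12:73901375-73947530, plus strand) was at 62.3, 70.4, 81.5 and 64.4 CPM in the 4 WT crypt libraries and at 65.0, 75.2, 67.2 and 68.8 CPM in KO IEC. The groups overlapped entirely, with a log2 fold change, KO over WT as fitted by edgeR, of -0.01 ± 0.10 (SE). Epas1 (chr17:86753907-86833410, plus strand) was at 4.57, 5.75, 5.52 and 10.5 CPM in WT crypts and at 43.3, 11.2, 115 and 13.7 CPM in KO IEC. Every KO IEC library lay above every WT library, but KO IEC replicates 1 and 3 stood far above replicates 2 and 4, which were close to WT replicate 4. The log2 fold change of Epas1 was 2.79 ± 0.72 (SE), and 1.78 without KO IEC replicate 3. KO IEC libraries minus the WT library of the same mitochondrial RNA class differed by 3.02 (log2 CPM) in the low class, with 1 WT library, and by 0.38 in the middle class, with 1 library of each genotype. With that class as a covariate the log2 fold change was 2.14.

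In organoids both alpha subunit genes were higher in every KO library. In KO CAG organoids Hif1a was at 124 and 117 CPM against 67.0 and 74.1 CPM in WT (log2 fold change 0.77 ± 0.09, SE), and Epas1 at 47.0 and 48.8 against 28.5 and 32.9 CPM (0.64 ± 0.11). In KO IEC organoids Hif1a was at 123 and 132 CPM against 90.1 and 107 CPM in WT (0.37 ± 0.17), and Epas1 at 34.9 and 64.5 against 25.4 and 33.4 CPM (0.76 ± 0.35). These were the only 2 of the 10 genes whose KO libraries lay above WT in both organoid experiments. Where 2 libraries meet 2, KO lay above WT without overlap for 19.4% of all genes tested in the KO IEC experiment and 35.5% in the KO CAG experiment. Gm15283, an antisense transcript that overlaps Hif1a and was looked at after its values were seen, went the other way in KO CAG organoids, from 6.75 and 6.61 CPM to 0.973 and 2.31 CPM. Because the strand setting of the counting is not given, reads of the pair cannot be told apart with certainty.

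The ratio of the 2 subunits shows the contrast of the crypts. Per kb of gene length, Epas1 was 0.0752 to 0.180 of Hif1a in WT crypts. It was 0.740 and 1.90 of Hif1a in KO IEC replicates 1 and 3, and 0.166 and 0.221 in replicates 2 and 4, which lie within or close to the WT range. The ratio in KO CAG organoids was 0.420 and 0.463, against 0.473 and 0.493 in WT, since both subunits were higher. KO IEC organoids had a ratio of 0.316 in replicate 1 and 0.541 in replicate 2, against 0.313 and 0.347 in WT.

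**Figure D2:**
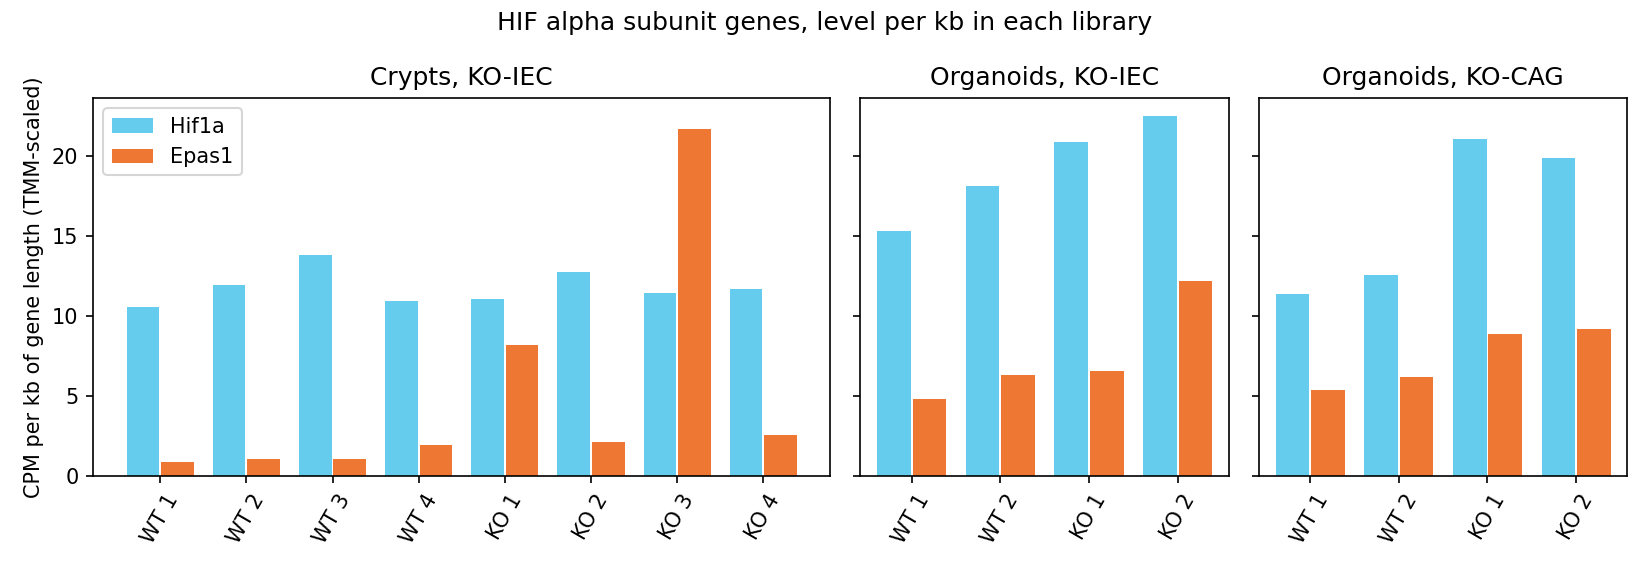
Level of Hif1a (light blue) and Epas1 (orange) in every library, in TMM-scaled CPM per kb of gene length (bars start at 0), for crypts and both organoid experiments. Hif1a is level across the crypt libraries at 10.6 to 13.8 CPM per kb, while Epas1 there reaches 8.16 and 21.6 CPM per kb in KO IEC replicates 1 and 3 and stays at or under 2.58 in the others.

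Egln3 (chr12:54178981-54203860, minus strand) had opposite differences in crypts and in KO CAG organoids. In WT crypts it was at 7.70, 2.17, 2.24 and 10.6 CPM and in KO IEC crypts at 13.1, 20.4, 23.3 and 92.7 CPM. All 4 KO IEC libraries were above WT, and replicate 4 was far above the next. The log2 fold change was 2.71 ± 0.72 (SE), or 1.74 without KO IEC replicate 4, and the 2 class differences were 1.24 (low) and 3.10 (middle). KO CAG organoids held Egln3 at 45.0 and 54.1 CPM against 106 and 113 CPM in WT (log2 fold change -1.14 ± 0.10). Egln3 in KO IEC organoids was at 161 and 461 CPM, on either side of WT at 268 and 218 CPM.

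Vegfa (chr17:46016993-46032369, minus strand) was at 40.0, 22.3, 30.8 and 35.3 CPM in WT crypts and at 40.0, 45.9, 69.1 and 64.2 CPM in KO IEC crypts. KO IEC replicate 1 was level with WT replicate 1 and the other KO IEC libraries were above all WT libraries (log2 fold change 0.77 ± 0.22). KO CAG organoids held Vegfa at 103 and 112 CPM against 179 CPM in both WT libraries (-0.73 ± 0.08). Vegfa in KO IEC organoids was at 112 and 309 CPM, with WT at 170 and 199 CPM between them.

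Of the glycolytic pair, Pfkfb3 differed more than Slc2a1. Pfkfb3 (chr2:11471433-11554077, minus strand) was at 14.0, 12.3, 11.4 and 17.4 CPM in WT crypts and at 29.3, 37.5, 48.4 and 33.6 CPM in KO IEC, with a gap between the groups (log2 fold change 1.43 ± 0.19). Among the 3 genes whose crypt groups did not overlap, it was the one with the narrowest spread between KO IEC libraries, and its class differences were 1.42 (low) and 0.94 (middle). Pfkfb3 was lower in KO CAG organoids, at 49.8 and 53.9 CPM against 67.6 and 61.9 CPM (-0.32 ± 0.10). Slc2a1 (chr4:119108711-119137983, plus strand) was at 23.2 to 32.9 CPM in WT and 20.8 to 25.7 CPM in KO IEC crypts, ranges that overlapped (-0.27 ± 0.13). Slc2a1 in KO CAG organoids was at 85.8 and 81.8 CPM, against 88.3 and 92.5 CPM in WT (-0.11 ± 0.08). Pfkfb3 in KO IEC organoids was at 60.3 and 131 CPM around WT at 84.5 and 85.0 CPM, and Slc2a1 at 147 and 173 CPM against 162 and 124 CPM.

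The mitochondrial genes were barely expressed in crypts and were those with the largest differences in KO CAG organoids. Ndufa4l2 (chr10:127514967-127517154, plus strand), a paralogue of the respiratory chain subunit gene Ndufa4, had 1, 2, 2 and 0 counts in the WT crypt libraries and 0 in every KO IEC crypt library, which is under the floor. KO CAG organoids gave it 0 and 2 counts (0 and 0.192 CPM) against 19 and 10 counts in WT (2.29 and 1.30 CPM). Set against the totals, its WT level was 16.2 times its KO CAG level, with a 95% exact interval of 4.11 to 141 that covers counting error only. The fitted log2 fold change of -3.83 ± 0.79 (SE) ran from -6.82 to -3.16 in the 3 fits with 1 library left out that kept the gene, and without WT replicate 1 the gene did not pass the count filter. Ndufa4l2 in KO IEC organoids was at 1.99 CPM in replicate 1 and 24.1 CPM in replicate 2, around WT at 8.58 and 8.69 CPM. Ndufa4 itself was at 213 and 203 CPM in KO CAG organoids and 167 and 169 CPM in WT. Ndufa4l2 overlaps Shmt2 on the other strand, which held 113 to 161 CPM in that experiment, and without the strand setting reads of the overlap cannot be told apart.

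Bnip3 (chr7:138890836-138909519, minus strand), which encodes a mitophagy receptor, was at 12.7 and 15.8 CPM in KO CAG organoids against 53.1 and 53.8 CPM in WT. WT was 3.72-fold higher, with a log2 fold change of -1.89 ± 0.13 (SE), the largest difference relative to its error among the 10 genes in that experiment. In crypts it was at 1.12 to 2.49 CPM in WT and 2.37 to 4.14 CPM in KO IEC, and the ranges touched (0.89 ± 0.32). Bnip3 in KO IEC organoids was at 55.9 and 119 CPM around WT at 101 and 82.2 CPM.

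Car9 (chr4:43506966-43513729, plus strand), which takes part in pH control at the cell surface, was at 89.6 to 109 CPM in WT crypts and at 80.1 to 130 CPM in KO IEC crypts, with no difference beyond the spread (0.08 ± 0.15). Car9 in KO CAG organoids was at 115 and 135 CPM against 230 and 226 CPM in WT (-0.86 ± 0.09). Ankrd37 (chr8:45996902-46005707, minus strand) was at 5.14 and 13.8 CPM in KO CAG organoids, which differed from each other, against 25.3 and 31.2 CPM in WT (-1.50 ± 0.31). In crypts Ankrd37 was at 0.880 to 2.81 CPM in WT and 1.16 to 5.51 CPM in KO IEC (0.88 ± 0.54). Car9 in KO IEC organoids was at 274 and 491 CPM around WT at 335 and 300 CPM, and Ankrd37 at 19.3 and 63.1 CPM around WT at 37.7 and 33.4 CPM.

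**Figure D3:**
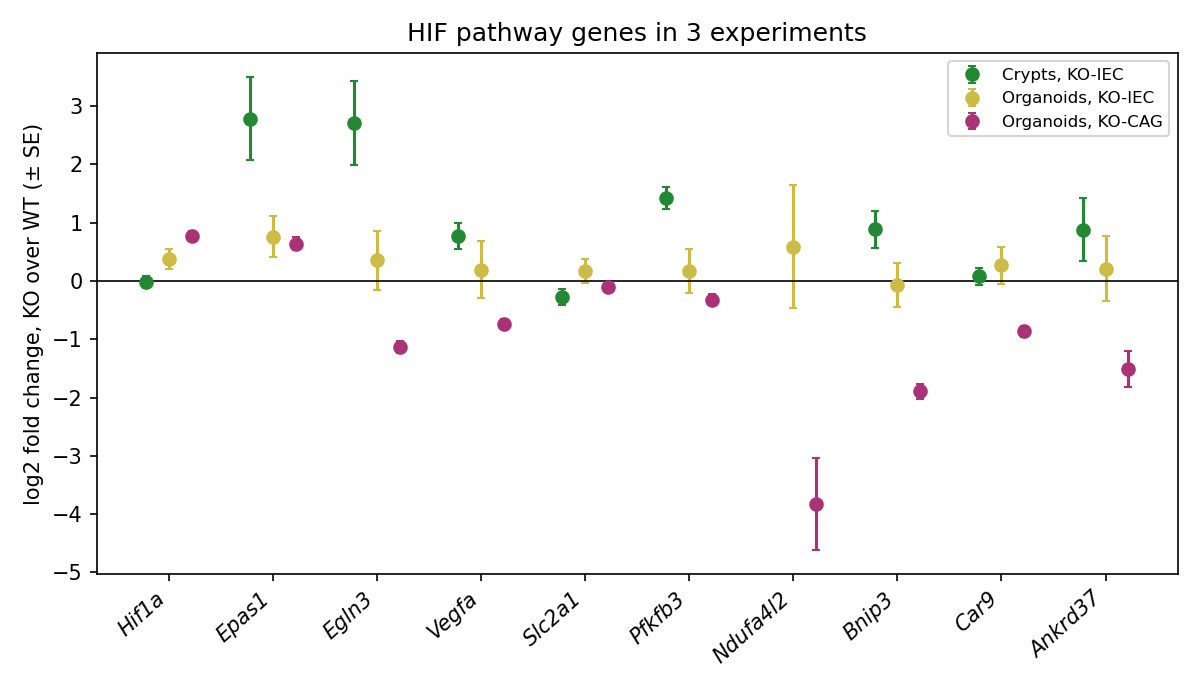
Log2 fold change of each gene, KO over WT, with its SE, in crypts (green), KO IEC organoids (yellow) and KO CAG organoids (purple); Ndufa4l2 was not tested in crypts. Egln3 and Pfkfb3 lie above 0 in crypts (2.71 and 1.43) and below 0 in KO CAG organoids (-1.14 and -0.32), while Epas1 lies above 0 in all 3.

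Counted over the 10 genes, 2 of the 9 tested in crypts (Epas1 and Pfkfb3, both higher) were called, that is, passed an adjusted p of 0.05 in edgeR's quasi-likelihood test, where 6.96% of the 13427 tested genes were called. In KO CAG organoids 9 of 10 were called, 2 higher (Hif1a and Epas1) and 7 lower, with Slc2a1 the exception, where 31.5% of 13598 genes were called. None of the 10 genes was called in KO IEC organoids, where 0.00717% of 13938 genes, a single gene, was. That gene was Cul4b, while 650 genes had an unadjusted p under 0.05 and DESeq2 called 27. In crypts 3 of 9 genes had all KO IEC libraries above WT, against 8.7% of genes, and 0 had all below, against 8.79%. Of the 10 genes in KO CAG organoids, 8 had both KO libraries below WT, against 34.2% of genes, and both of the others had them above, so that all 10 were without overlap, against 69.7%. In KO IEC organoids 2 of 10 were, against 38.9%. As the genes were chosen with these contrasts known, nothing is read from these counts.

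Calls in the crypts turned on single libraries. Leaving out WT replicate 1, 2 or 3 or KO IEC replicate 2 or 3 left 0 of the 10 genes called, where 0.0145% to 0.147% of all genes were called. Leaving out WT replicate 4 or KO IEC replicate 1 gave 4 (13.6% and 18% of all genes), and leaving out KO IEC replicate 4 gave 2 (3.75%). With the mitochondrial RNA class as a covariate, none was called (0.0149% of all genes). Both called genes kept their direction where the calls were lost. With 1 library left out, Pfkfb3 stayed between 1.29 and 1.58 and Epas1 between 1.78 and 3.13 on the log2 scale, and with the class as a covariate Pfkfb3 was at 1.24. In the same crypts the summed level of 7 enterocyte markers was 1481 to 6682 CPM in WT and 6052 to 14628 CPM in KO IEC, and that of 4 stem cell markers 1388 to 2224 and 863 to 1395 CPM. The 6 fibroblast markers summed to 4.26 to 7.36 CPM in WT and 1.06 to 4.23 CPM in KO IEC, ranges that nearly touched. Of these 6 markers 2 passed the count filter. None of them lay above or below WT without overlap, beside 8.7% and 8.79% of all tested genes. Endothelial markers summed to 5.39 to 6.63 CPM over 8 genes in WT crypts and 3.50 to 5.52 CPM in KO IEC, with 1 to 4 of them at 0 counts. Immune markers summed to 19.6 to 39.6 CPM in WT and 20.4 to 61.4 CPM in KO IEC, and pericyte and smooth muscle markers to 1.80 to 3.85 CPM over all 8 crypt libraries. The part of these markers in the values above was not tested.

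In crypts the genes closest to Epas1 in pattern over the 8 libraries, outside the 10 genes, were H2-Bl, 9630028B13Rik and Gm37113. Closeness was the root mean square difference of centred log2 CPM, and was 0.51, 0.74 and 0.77 for these, against a median of 1.52 over all tested genes. The nearest genes lie under the median by selection, and the median is close to the SD of Epas1 itself (1.49), so it gives scale only. H2-Bl is annotated as a polymorphic pseudogene and 9630028B13Rik as an antisense RNA. The closest to Ndufa4l2 over the 4 libraries of the KO CAG experiment were Cyp2c70, Ppp1r3b and C1rl (0.18, 0.21 and 0.23, against a median of 1.37). That pattern rests on 29 counts in WT and 2 in KO CAG.

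The other genes of the pathway were taken as a list of 67, grouped by role. The list was chosen with earlier results of these data known. Its counts and adjusted p-values therefore describe the list and are no independent test. In crypts 4 of the 52 tested rose and 0 fell (7.69%, beside 6.96% of all genes, of which 4.3% were higher and 2.66% lower), and the median log2 fold change was 0.12, against -0.01 over all tested genes. For the list, 18 genes (34.6%) had an unadjusted p under 0.05, beside 31.9% of all genes, and DESeq2 called 9 higher and 3 lower, or 23.1%, beside 12.2%, 7.51% and 19.7% of all genes for higher, lower and either. These shares lie close to those of all genes. Those that rose in edgeR were Angptl4, which encodes a secreted inhibitor of lipoprotein lipase, Adora2b, an adenosine receptor gene, Ccng2, a cyclin gene, and Mxi1, a MYC antagonist. Angptl4 was at 4.66, 2.17, 2.80 and 5.71 CPM in WT and at 10.6, 13.4, 9.76 and 14.0 CPM in KO IEC crypts (log2 fold change 1.63 ± 0.30, adjusted p = 0.0383). Adora2b was at 3.58, 1.51, 0.720 and 2.81 CPM in WT and at 5.39, 6.95, 8.48 and 11.9 CPM in KO IEC (1.92 ± 0.44, adjusted p = 0.0450). Ccng2 (1.26 ± 0.31, adjusted p = 0.0467) and Mxi1 (0.85 ± 0.19, adjusted p = 0.0450) likewise had all 4 KO IEC libraries above WT. None of the 16 tested genes of glucose transport and glycolysis passed the test in crypts in edgeR, with a median of 0.25, while 4 had an unadjusted p under 0.05 and DESeq2 called 2, smaller shares than those of all genes just given. These 4 calls were lost without WT replicate 1, 2 or 3 or KO IEC replicate 2 or 3, were 1 without KO IEC replicate 4 and 8 without WT replicate 4 or KO IEC replicate 1, and were lost with the mitochondrial RNA class as a covariate.

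In KO CAG organoids 25 of the 55 tested list genes fell and 6 rose, or 56.4% called beside 31.5% of all genes. Given how the list was chosen, this excess is a description. For lower genes alone, 13.4% of all genes were called, and for higher genes 18.1%. The median log2 fold change of the list was -0.23, against 0.00 over all tested genes, and the genes that fell ranged from -1.46 to -0.29. Glucose transport and glycolysis held more of them than any other role, with 12 of 16 tested genes lower, 0 higher and a median of -0.60. Pdk1, a pyruvate dehydrogenase kinase gene, was at 86.5 and 120 CPM against 288 and 284 CPM in WT (-1.46 ± 0.13, adjusted p = 4.68e-05 in edgeR). Slc16a3, which encodes a lactate exporter, was at 54.5 and 68.1 CPM against 167 and 153 CPM (-1.37 ± 0.11, adjusted p = 2.35e-05), and the aldolase gene Aldoc at 42.3 and 42.2 CPM against 103 CPM in both (-1.29 ± 0.09, adjusted p = 8.98e-06). Both KO libraries lay below both WT libraries for each of these. Several glycolytic genes have processed pseudogenes, and reads shared with such copies may have been counted for either.

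Of the 4 tested genes listed under mitochondria and mitophagy 3 fell in KO CAG organoids. They included the MYC antagonist gene Mxi1, which the list placed in that group (-0.74 ± 0.10, adjusted p = 4.61e-04 in edgeR). Of 11 other hypoxia-responsive genes 7 fell too. Of these, the collagen prolyl hydroxylase gene P4ha2 was at 5.28 and 7.60 CPM against 16.9 and 16.1 CPM in WT (-1.33 ± 0.21, adjusted p = 0.00114). Secreted and vascular factors had 2 of 5 tested genes higher and 0 lower. They were Angptl4, at 41.4 and 25.9 CPM against 16.6 and 14.8 CPM (1.08 ± 0.21, adjusted p = 0.00381), and Hmox1, a haem-degrading enzyme gene, at 7.92 and 6.83 CPM against 1.69 and 4.02 CPM (1.37 ± 0.36, adjusted p = 0.0150). Of 4 tested genes of pH control and barrier 2 rose, Adora2b with the larger change (2.37 ± 0.61, adjusted p = 0.0141) from a level near the floor, 0.120 and 0.648 CPM in WT.

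Within oxygen sensing itself, 3 of the 11 tested genes were called in KO CAG organoids, 1 higher and 2 lower (27.3%, beside 31.5% of all genes). Arnt, the shared HIF partner, differed by -0.08 ± 0.09 in KO CAG organoids (adjusted p = 0.540 in edgeR), Vhl by -0.10 ± 0.16 (0.650), the asparaginyl hydroxylase gene Hif1an by 0.07 ± 0.09 (0.591) and Egln2 by 0.17 ± 0.09 (0.151). Those called were Egln1, the main HIF prolyl hydroxylase gene, which fell from 77.5 and 70.4 to 53.0 and 50.4 CPM (-0.52 ± 0.09, adjusted p = 0.00253), Hif3a, which fell from 19.4 and 20.2 to 6.39 and 10.2 CPM (-1.22 ± 0.21, adjusted p = 0.00191), and Arnt2, a paralogue of Arnt, which rose from 8.67 and 9.20 to 33.8 and 26.9 CPM (1.75 ± 0.17, adjusted p = 7.24e-05). In crypts none of the 11 passed in edgeR, 3 had an unadjusted p under 0.05, DESeq2 called 1, and Arnt (0.13), Egln1 (0.14), Egln2 (-0.19), Hif1an (0.21) and Vhl (-0.01) had the log2 fold changes in brackets.

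**Figure D4:**
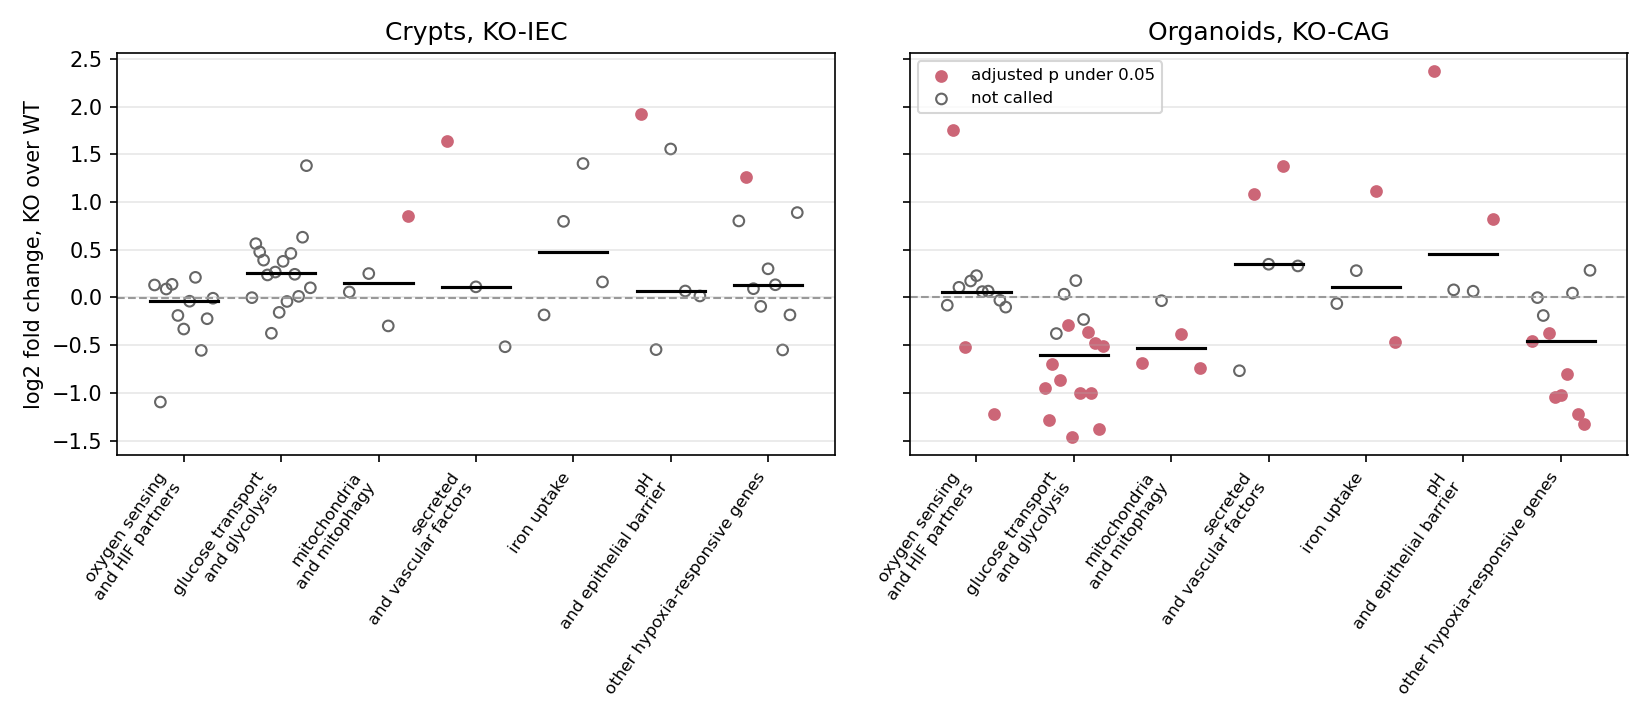
Log2 fold change, KO over WT, of each tested gene of the 67-gene pathway list in crypts and KO CAG organoids, by role; filled points passed an adjusted p of 0.05, solid lines are the medians of each role and the dashed line is the median of all tested genes. In KO CAG organoids 12 of 16 glycolytic genes are called and all of these lie below 0, whereas in crypts none of them is called.

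Genes of intestinal iron absorption, for which HIF-2 is best known in this tissue, followed the order of Epas1 across the crypts only in part. The part of HIF-2 in these values was not tested. None of the 4 tested passed the test there in edgeR or DESeq2, with 1 at an unadjusted p under 0.05. The exporter gene Slc40a1 was at 21.2, 18.6, 252 and 25.8 CPM in KO IEC crypts and at 20.2, 13.6, 25.5 and 60.4 CPM in WT, so that KO IEC replicate 3 alone stood apart. The importer gene Slc11a2 was likewise highest in KO IEC replicate 3, at 198 CPM, against 58.3 to 83.0 CPM in the other KO IEC and 49.1 to 69.6 CPM in WT libraries. KO IEC replicate 3 was also the library with the most Epas1, but replicate 1, with the second most, had Slc40a1 at 21.2 and Slc11a2 at 58.3 CPM. The ferric reductase gene Cybrd1 was at 1.53 to 4.67 CPM in all crypt libraries, and the transferrin receptor gene Tfrc at 296 to 519 CPM. Slc40a1 rose in KO CAG organoids (63.0 and 93.7 against 31.3 and 41.6 CPM, log2 fold change 1.12 ± 0.18, adjusted p = 0.00142 in edgeR) and Tfrc fell (-0.47 ± 0.12, adjusted p = 0.0138), while Slc11a2 (0.28 ± 0.16, adjusted p = 0.194) and Cybrd1 (-0.07 ± 0.11, adjusted p = 0.684) did not pass the test. Trf was below the count filter in every experiment.

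Crypts and KO CAG organoids share no libraries, and 3 list genes were called in both, which is 75% of the list's crypt calls and 9.7% of its KO CAG calls. Over all genes, 472 were called in both, or 50.5% and 11% of the calls. Angptl4 and Adora2b rose in both and Mxi1 rose in crypts and fell in KO CAG organoids. Of the 25 genes that fell in KO CAG organoids, 24 were tested in crypts, where 17 had a log2 fold change above 0, with a median of 0.15, close to the whole list in crypts (34 of 52 above 0, median 0.12). Of all 1734 genes that fell in KO CAG organoids and were tested in crypts, 31.4% were above 0 there, with a median of -0.18. The 7 enterocyte markers in KO CAG cultures summed to 3670 and 4013 CPM for WT and to 8306 and 10382 CPM in KO, and 4 stem cell markers to 2589 to 3100 and 2118 to 2492 CPM. Of the 4 stem cell markers 1 lay above WT without overlap and 2 below, beside 35.5% and 34.2% of all tested genes. Pericyte and smooth muscle markers summed to 4.34 and 4.54 CPM in WT and 17.7 and 24.2 CPM in KO CAG, nearly all of it from Notch3 and Rgs5, named after their values were seen, with Acta2 at 0 in all 4 libraries. Endothelial markers were at 7.71 to 10.9 CPM in WT and 9.73 to 12.6 CPM in KO CAG, immune markers at 0.843 to 1.55 and 4.62 to 6.39 CPM, and fibroblast markers at 0.259 to 0.482 and 1.11 to 1.15 CPM. The part of these markers in the values above was not tested.

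In KO IEC organoids the 2 KO libraries went in different directions for most of the pathway. For 7 of the 10 genes replicate 1 was the lowest and replicate 2 the highest of the 4 libraries, and the opposite order occurred for 0 of 10. Over all 13938 tested genes the first order occurred in 12.6% and the opposite order in 13.0%. Replicate 2 exceeded replicate 1 by a median of 1.10 (log2) over the 10 genes, with Ndufa4l2 at 3.52, Ankrd37 at 1.70, Egln3 at 1.52 and Hif1a at 0.11. The same order was found for 30 of 55 tested genes of the pathway list (54.5%), with a median of 0.62 against 0.00 over all genes. Among them were 13 of 16 glycolytic genes but only 2 of 11 genes of oxygen sensing. The 10 genes and the list were chosen with earlier results of these data known, so these shares are descriptions. In the KO CAG organoids the same order occurred in 3.64% of the list and 4.59% of all genes. Of the 25 list genes that fell in KO CAG organoids, 20 had replicate 1 lowest and replicate 2 highest here. None of the 55 list genes was called in edgeR or DESeq2, and 3 (5.45%) had an unadjusted p under 0.05, beside 4.66% of all genes.

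**Figure D5:**
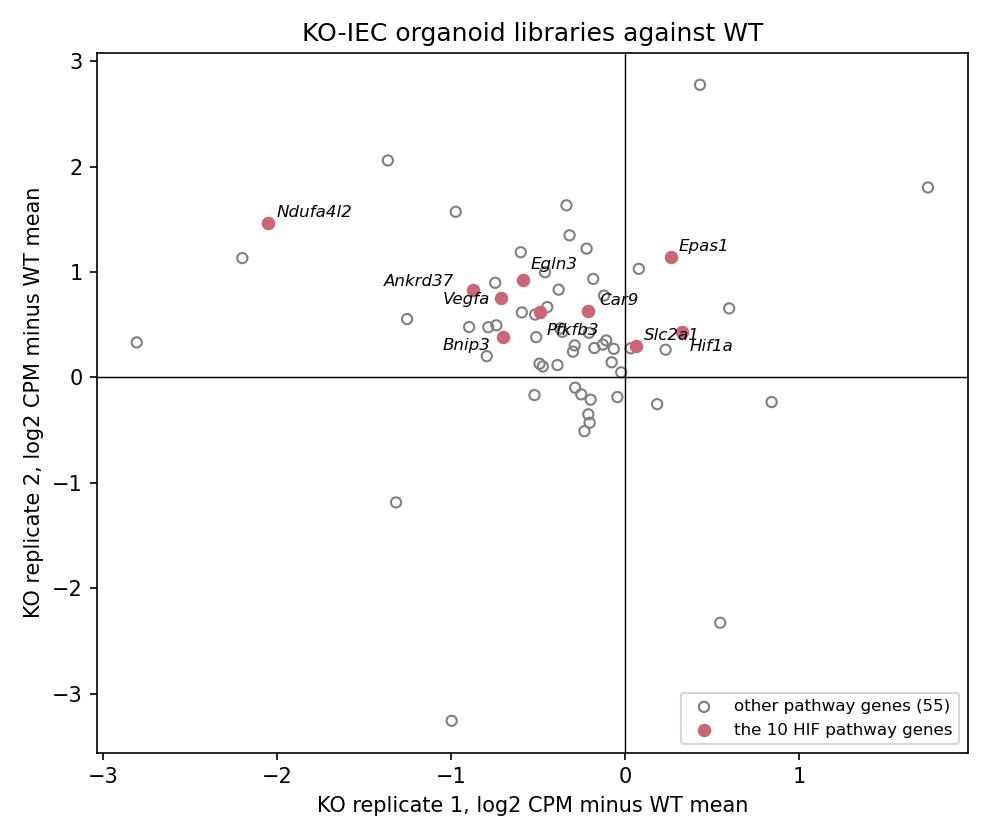
Log2 CPM minus the mean of the 2 WT libraries, in KO IEC organoid replicate 1 (x) against replicate 2 (y), for the 10 genes (red, named) and the other 55 tested genes of the pathway list (open). Most points fall in the upper left, below WT in replicate 1 and above WT in replicate 2, whereas Hif1a, Epas1 and Slc2a1 are above the WT mean in both.

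The summed level of enterocyte markers in those organoids had the same order. Not every marker had it, since 2 of the 7 lay above WT in both KO IEC libraries and 0 below. Over all tested genes these shares were 19.4% each. The 7 enterocyte markers summed to 3500 CPM in KO IEC replicate 1, 5122 and 9093 CPM in the WT libraries and 11503 CPM in KO IEC replicate 2, and the 4 stem cell markers to 1422 CPM in replicate 1 and 333 CPM in replicate 2, against 2300 and 3446 CPM in WT. Cul4b was at 1.69 and 1.76 CPM in the 2 KO IEC libraries, a small difference. Endothelial markers were at 4.79 to 5.42 CPM in KO IEC and 9.44 to 11.5 CPM in WT organoids. Of these 8 markers 2 passed the count filter, and 2 lay above WT without overlap and 2 below, beside 19.4% of all tested genes for each. Pericyte and smooth muscle markers were at 5.01 to 7.36 CPM in all 4 libraries. Immune markers were at 1.38 to 1.46 CPM in WT and 1.69 to 2.84 CPM in KO IEC, and fibroblast markers at 0.115 to 0.398 and 0.473 to 0.482 CPM. The part of the marker shift was not tested. Of the 4 tested iron genes 3 had replicate 1 lowest and replicate 2 highest. They were Cybrd1 at 24.9 and 252 CPM (WT 94.5 and 140), Slc11a2 at 152 and 595 CPM (WT 217 and 169) and Tfrc at 364 and 792 CPM (WT 398 and 430). Slc40a1 was at 19.3 and 98.6 CPM, both above WT (18.0 and 11.3 CPM). Without KO IEC replicate 1, which leaves a single KO library assumed to vary like WT, 7 of the 10 genes, all higher, were called, where 15.8% of all genes were called. The list then had 15 genes higher and 2 lower, beside 6.69% and 9.16% of all genes, and without replicate 2 none of the 10 was called (0.0413% of all genes).

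Promoter windows of the list genes that fell in KO CAG organoids were also searched. Of 25 such genes 22 had an entry, and 20 of these (90.9%) held ACGTG or GCGTG on either strand and 15 (68.2%) held ACGTG. Over the whole list 48 genes had an entry, of which 83.3% and 43.8% held them, and among genes tested in KO CAG organoids the shares were 67.4% and 29.3%. The list was built from known hypoxia genes and includes the genes that fell, so the shares are descriptions.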

How the data were processed

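Raw read counts on genes were deposited by the authors as 1 table per experiment, with gene symbols, positions and lengths. Per the submitters' notes, HISAT2 2.0.5 and featureCounts 1.5.0-p3 were among the tools. Genome build, annotation and strand setting are not given in the sources used here. Positions are those of the tables and equal GENCODE M21 (GRCm38) for 9 of the 10 genes, all but Epas1.

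Groups came from the sample labels. Each experiment was fitted alone, KO against WT, in edgeR 4.0.16 (R 4.3.3): filterByExpr, TMM scaling, quasi-likelihood F test, and Benjamini-Hochberg adjustment over all tested genes, with a gene called at an adjusted p under 0.05. The SE is the log2 fold change over the square root of F. CPM are TMM-scaled, except for floors and mitochondrial RNA, and log2 values carry a prior count of 2. Tests were checked on simulated data.

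The 10 genes, the 67-gene pathway list and the marker lists were chosen with earlier results of these data known. Named are the 10 genes, up to 8 called list genes with the largest changes per experiment, the iron genes, Arnt, Egln1, Egln2, Hif1an, Vhl and the 3 nearest patterns of Epas1 and Ndufa4l2. Where a symbol had 2 rows, the one with more counts was used. Alternatives were DESeq2 1.42.0, its size factors, library size only, no filter, at least 10 counts in every library, a replicate block, the mitochondrial RNA class, a 2-fold minimum and leaving out each library. The classes have bounds at 100 and 2000 CPM.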

Additional observations from a re-analysis of the deposited data

Results flagged for a closer look

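Egln3 was at 92.7 CPM in KO IEC crypt replicate 4, far from the other 3 KO IEC libraries, the next of which was at 23.3 CPM (gap over range 0.871). Slc40a1 was at 252 CPM in KO IEC crypt replicate 3, with the next at 25.8 CPM (0.969). These were 2 of 59 groups of 4 libraries examined over 31 genes, and chance alone marks about 1 in 20.

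Egln3, Pfkfb3 and Mxi1 had every KO library above WT in crypts and every KO library below WT in KO CAG organoids. The log2 fold changes of the 2 experiments lay 3.85 apart for Egln3, 1.75 apart for Pfkfb3 and 1.59 apart for Mxi1. These differences were not tested, and for Egln3 and Pfkfb3 they belong to the values by which the genes were chosen.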

How the results depend on the processing

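In crypts, where 2 of the 10 genes were called, the count was 1 with DESeq2 size factors (5.88% of all genes called) or library size only (4.73%), 4 without the count filter (4.91%), 4 in DESeq2's Wald test (19.7%), and 0 with the replicate block (0.0298%) or the mitochondrial RNA class (0.0149%), and it ran from 0 to 4 with 1 library left out. The 4 higher list genes became 9 in DESeq2 (12.2% of all genes) and 0 with the block or the class (0 to 8 with 1 library left out), and the 0 lower became 3 in DESeq2 (7.51%; 0 to 3 with 1 library left out). With library size only, 51% of all crypt calls were higher, against 61.8% with TMM. In KO IEC organoids the list had 3 higher and 1 lower calls without the filter (0.44% and 0.477% of all genes), and 0 in the other settings with all libraries. With 1 library left out, calls were 0 to 7 of the 10 genes, and 0 to 15 higher and 0 to 2 lower list genes, all of the non-zero counts arising without KO IEC replicate 1. In KO CAG organoids a 2-fold minimum left 4 of 9 calls among the 10 genes and 9 of 25 lower list genes. The share of all genes passing that minimum was not computed, so nothing is read from these counts. Leaving out 1 library there leaves 1 group with a single library. The log2 fold change then ran from -2.08 to -1.78 for Bnip3 and from -2.46 to -1.04 for Ankrd37. It ran from -0.39 to -0.27 for Pfkfb3 and from 0.69 to 0.84 for Hif1a. No called gene among the 10 changed sign, and 315 of 333 alternative log2 fold changes moved by less than 1 SD between libraries. The cause of these shifts was not tested. Replicate numbers were not taken as pairs, because same-numbered crypt libraries had correlations of -0.04, 0.19, -0.40 and 0.43, and the organoid experiments have 2 numbers each (0.34 and 0.07). With the block, KO CAG calls were 9 of the 10 genes, 7 higher and 26 lower list genes, where 36.3% of all genes were called, and all counts in KO IEC organoids stayed at 0. Depth limits Ndufa4l2 in crypts, which could not be tested.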
